A study of Mus musculus with 27 samples.

Results

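Firre, Dnajc6, Myof, Cep170b, Ltbp4, Crip2, Sox15, Rtkn and Tgm1 are 9 genes whose RNA level differed between mouse embryonic stem (ES) cells given siRNA against Msl1 and cells given negative control siRNA. They were chosen by that difference in the same arrays: with Msl1 itself they made up the 10 of 16283 tested probesets (0.0614%) that passed a limma fit without experiment blocks, at a Benjamini-Hochberg adjusted p under 0.05. Their change after MSL1 siRNA is therefore given below as a description, with no test. Each gene had 1 probeset, so the 9 genes are 9 of the 35556 probesets on the array, and all 9 passed the filter on low values. In the choosing fit, Tgm1 stood last inside the threshold (log2 change 0.35), while Atp2c1 (-0.41) and Rbm38 (0.26) stood first outside it. The question put to the other arrays was whether each change also occurs after siRNA against MOF, MOF and MSL1 together, or NSL1, and in other ES cell lines.

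MOF (gene symbol Kat8) is an acetyltransferase of histone H4. It works in separate complexes, one of them the MSL complex, in which MSL1 is the scaffold that holds MOF, MSL2 and MSL3, and the other the NSL complex. Firre is an X-linked long noncoding RNA that binds the nuclear matrix factor HNRNPU and anchors the inactive X near the nucleolus. Sox15 is an HMG-box transcription factor of the SOX family that is expressed in ES cells together with Sox2.

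The study comprised 27 arrays in 12 experiments, each with its own control array. In PGK12.1, a female line (mother 129, father (129 X PGK)F1), 3 arrays (experiments 1 to 3) followed MOF siRNA, 3 MSL1 siRNA (A to C), 3 NSL1 siRNA (C to E) and 2 MOF and MSL1 siRNA together (D and E), beside 3 controls (1 to 3) and 5 controls (A to E). WD44, a male BL6 line, and E14, here a male BL6 and Cast. hybrid, each had 2 MOF and 2 control arrays. Cells were grown on mouse embryonic fibroblast feeders with LIF, depleted of feeders on gelatin, and transfected with 100 pmol of siRNA for 48 h, controls included. PGK12.1 experiments 1 and 2 had a further round of 400 pmol for 24 h, and the MOF and MSL1 cells received 50 pmol of Msl1 siRNA beside 100 pmol of Mof siRNA, which is less Msl1 siRNA than in the MSL1 arrays. Nothing in the labels says that the experiments used separate clones, and each line is a single line, so the p-values below measure the spread between these experiments.

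The targeted genes moved as labelled, with 1 reservation. Kat8 fell in every MOF comparison, by 0.84 in WD44, 0.68 in E14, 0.87 in PGK12.1 with MSL1 siRNA added and 1.22 with MOF siRNA alone, all as log2 changes. Msl1 stood at -0.97 after MSL1 siRNA (-0.83, -0.86 and -1.22 in experiments A to C) and fell by 0.46 after MOF and MSL1 siRNA. For NSL1 the labels do not say whether Kansl1 or Nsl1 was meant: of 2 Kansl1 probesets one fell (-0.24) and the other rose (0.50), and Nsl1 stood at 0.16, so these are called the arrays labelled NSL1. Msl1 itself rose by 0.45 in them. The 14 ES cell markers lay in every array at a median percentile of 93.1 to 96.7 of all probesets and the 18 feeder fibroblast markers at 49.2 to 58.9. Array medians ran from 6.22 to 7.96 in steps between sets of experiments, so levels are not comparable across sets and every change is knockdown minus control of the same experiment. Controls A to C (6.76 to 6.77) and controls D and E (6.39 and 6.42) also differed in this way. Positions of arrays against all 5 controls A to E below are therefore descriptions only. As in any bulk measurement, fewer cells of a type and less RNA per cell cannot be told apart.

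Promoter sequences are shown for Firre, Sox15 and Crip2 and for the neighbour of each that the results come back to, since position and promoter sequence took no part in choosing the genes. All 9 genes matched the RefSeq promoter table (build GRCm38.p6, 250 bases before to 50 after the transcript start). It holds 32851 promoters for 27025 genes, and only the first listed promoter of each gene was used. For some members, Dnajc6 among them, that window lies inside the annotated gene, so other starts were not examined. Capitals mark the GC box GGGCGG and the E-box CACGTG, on either strand. Every motif was searched on both strands, and none contains another. Sox15 lies on the plus strand and Cd68 on the minus strand of chromosome 11, Firre and Mbnl3 on the minus strand of the X, and Crip2 and Crip1 on the plus strand of chromosome 12.
Firre, chrX:50635272-50635571: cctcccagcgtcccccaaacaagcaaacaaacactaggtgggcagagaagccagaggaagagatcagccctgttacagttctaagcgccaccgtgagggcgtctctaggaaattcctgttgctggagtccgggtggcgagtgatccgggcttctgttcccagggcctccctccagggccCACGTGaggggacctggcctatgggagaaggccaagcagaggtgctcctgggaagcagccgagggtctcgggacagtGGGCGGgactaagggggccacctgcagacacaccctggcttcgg
Mbnl3, chrX:51205941-51206240: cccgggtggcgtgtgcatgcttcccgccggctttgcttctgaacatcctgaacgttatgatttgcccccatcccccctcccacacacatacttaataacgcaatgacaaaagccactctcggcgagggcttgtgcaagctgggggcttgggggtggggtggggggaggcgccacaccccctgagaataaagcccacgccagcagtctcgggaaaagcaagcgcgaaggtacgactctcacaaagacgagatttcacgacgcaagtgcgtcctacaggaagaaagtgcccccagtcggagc
Sox15, chr11:69654787-69655086: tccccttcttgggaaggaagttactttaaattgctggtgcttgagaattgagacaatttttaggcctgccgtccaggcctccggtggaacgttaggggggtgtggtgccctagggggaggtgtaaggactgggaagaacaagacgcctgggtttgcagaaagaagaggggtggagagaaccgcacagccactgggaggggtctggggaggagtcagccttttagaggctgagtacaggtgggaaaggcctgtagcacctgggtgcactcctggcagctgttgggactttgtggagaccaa
Cd68, chr11:69666121-69666420: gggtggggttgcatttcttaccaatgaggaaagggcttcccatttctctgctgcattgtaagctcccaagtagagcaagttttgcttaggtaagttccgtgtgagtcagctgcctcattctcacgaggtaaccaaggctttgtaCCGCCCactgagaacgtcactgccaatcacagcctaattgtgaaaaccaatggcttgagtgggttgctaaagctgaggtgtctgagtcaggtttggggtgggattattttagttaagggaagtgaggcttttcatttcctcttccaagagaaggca
Crip2, chr12:113139986-113140285: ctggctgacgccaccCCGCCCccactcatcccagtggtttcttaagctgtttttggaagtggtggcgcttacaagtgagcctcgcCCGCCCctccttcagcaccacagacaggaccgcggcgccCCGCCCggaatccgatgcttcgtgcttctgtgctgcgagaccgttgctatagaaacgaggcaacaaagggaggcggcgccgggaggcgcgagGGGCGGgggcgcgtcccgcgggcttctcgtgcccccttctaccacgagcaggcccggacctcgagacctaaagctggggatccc
Crip1, chr12:113151762-113152061: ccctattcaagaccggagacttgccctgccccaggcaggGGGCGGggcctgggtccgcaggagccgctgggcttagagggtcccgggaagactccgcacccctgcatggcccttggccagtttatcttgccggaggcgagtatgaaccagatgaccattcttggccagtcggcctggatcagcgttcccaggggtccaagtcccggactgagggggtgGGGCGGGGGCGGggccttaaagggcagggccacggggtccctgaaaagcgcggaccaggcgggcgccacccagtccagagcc
None of the 4 motifs searched stood in all 9 promoters. The GC box stood in 6 of 9, against 35.9% of the 27025 genes with a promoter, the E-box CACGTG in Firre alone (7.24% of all), the CCAAT box CCAAT in 2 (37.9%), and the TATA box TATAAA in none (14.2%). CpG counts ran from 5 in Sox15 and 12 in Firre to 29 in Crip2 and 44 in Cep170b, with a median of 15 over the 9 and 7 over all genes. All 9 had passed the filter on low values, which was not applied to the genes with a promoter, so the sets compared are unlike. Sox15 had no GC box and its neighbour Cd68 had 1, whereas Crip2 had 4 and Crip1 had 3. A match describes these letters only, and a missing match says only that they are not in this window.

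After MSL1 siRNA, 3 of the 9 genes were lower than their own control and 6 were higher in every one of experiments A to C. In the fit with the experiment as a block, which is used for all values below, the changes were -0.48 for Firre, -0.43 for Dnajc6 and -0.32 for Myof, and 0.39 for Crip2, 0.39 for Sox15, 0.34 for Cep170b, 0.34 for Ltbp4, 0.32 for Rtkn and 0.30 for Tgm1. In that fit 30 of 16283 probesets (0.184%) were called for MSL1, among them Atp2c1 (-0.45), which stood outside the threshold of the choosing fit. The choosing fit set the MSL1 arrays against controls A to E pooled. Its median change over all probesets was 0.06, against -0.004 with the block. Firre stood at 71.8% of control and Crip2 at 131%.

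**Figure D1:**
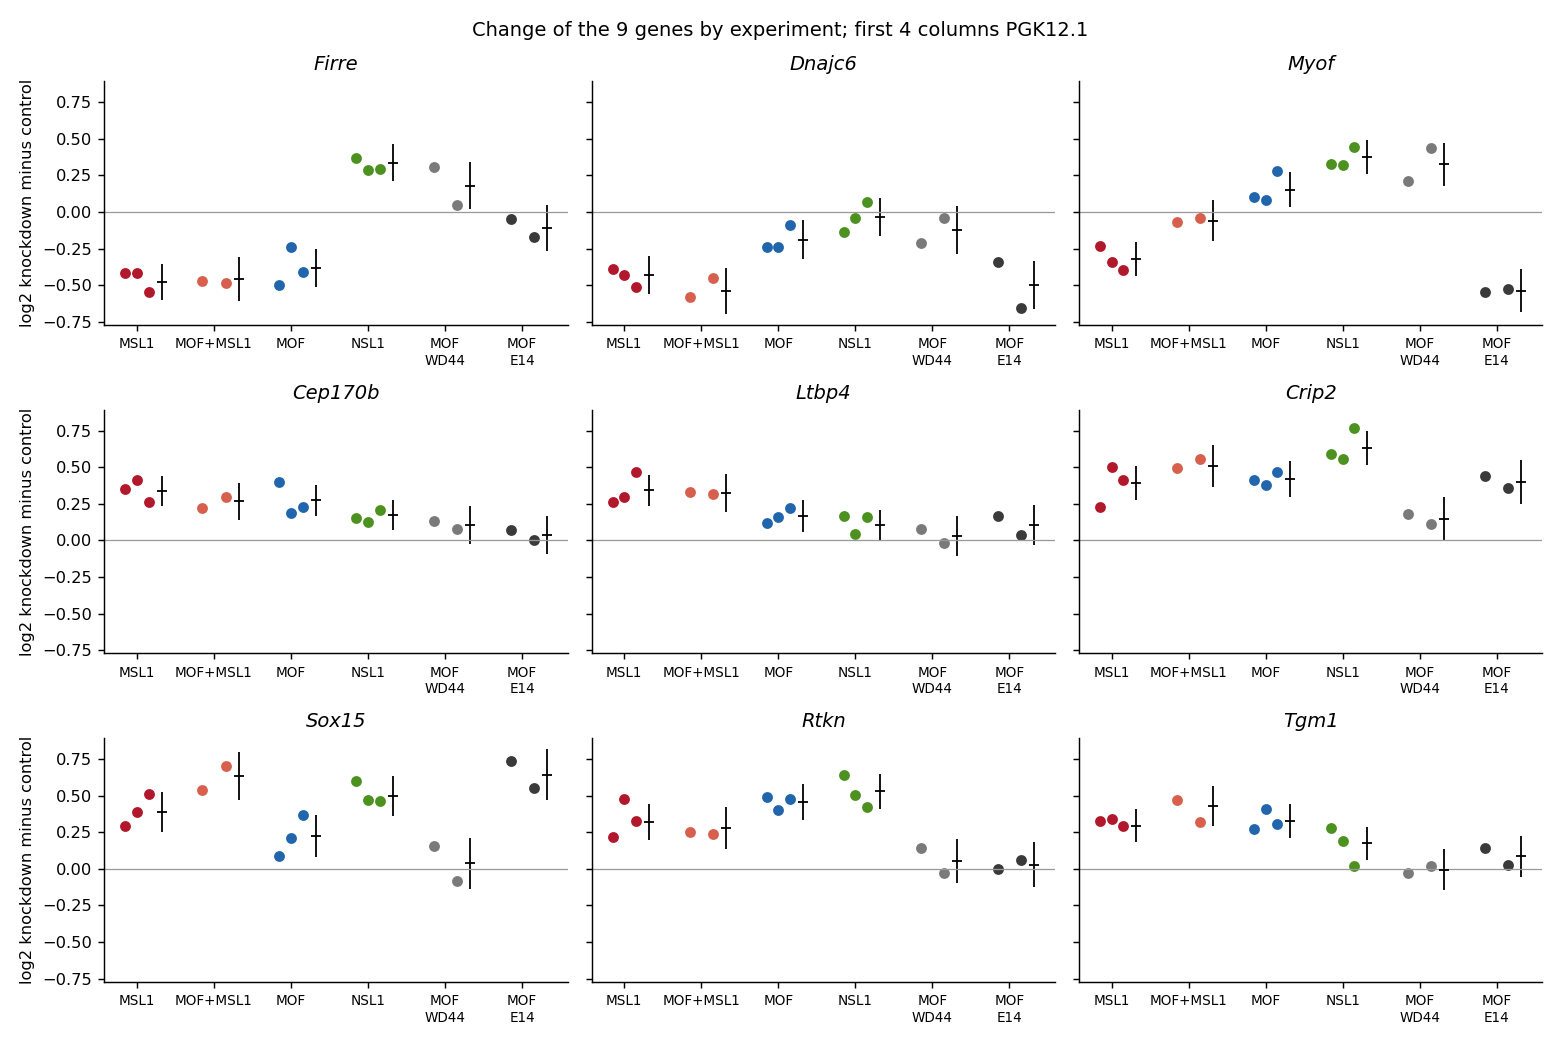
Log2 knockdown minus control for each of the 9 genes (1 point per experiment, y axis) after MSL1, MOF and MSL1, MOF and NSL1 siRNA in PGK12.1 and after MOF siRNA in WD44 and E14 (x axis); the dash and bar to the right of each set give the fitted change and its 95% interval. Firre lies below 0 in the first 3 columns and above 0 after NSL1 siRNA, while Crip2, Rtkn and Sox15 lie above 0 in all 4 PGK12.1 columns.

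The arrays of MOF siRNA in PGK12.1 and their controls entered neither mean of the contrast that chose the members, though all 27 arrays shared that fit's estimate of the spread. Of the 9 genes 6 rose (Cep170b, Ltbp4, Crip2, Sox15, Rtkn and Tgm1) and 2 fell (Firre and Dnajc6), each in the direction it had after MSL1 siRNA, and Myof did not pass. Over all probesets 9.49% were called higher and 13.9% lower (1545 and 2271 probesets, or 975 and 3051 after median centring, where Ltbp4 and Sox15 did not pass). The largest changes were in Rtkn (0.46, SE 0.06, adjusted p = 9.3e-05) and in Crip2 (0.42, SE 0.06, adjusted p = 0.000148), a LIM domain protein. Without the block only Firre, Crip2, Rtkn and Tgm1 passed (4 genes, against 7.68% of all probesets in either direction), and Dnajc6 (adjusted p = 0.0913), Cep170b (0.0709), Ltbp4 (0.322) and Sox15 (0.103) did not.

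After MOF and MSL1 siRNA together the same 6 genes passed as higher and the same 2 as lower, against 3.24% of all probesets higher and 3.19% lower. These changes are measured against controls D and E, which were among the 5 pooled controls of the choosing fit, so their agreement in sign with the MSL1 changes is not independent. Myof stood at -0.06 (SE 0.07, adjusted p = 0.678). Only 2 experiments support each value. Without experiment D the adjusted p of all but Sox15 missed the threshold (1 gene called), and without experiment E 4 genes were called, with Firre at an adjusted p of 0.0677. Without the block 5 genes passed (9.9% of all probesets in either direction, 438 higher and 1174 lower), and Cep170b (0.454), Ltbp4 (0.197) and Rtkn (0.0684) did not. That fit pools controls A to E, and its median change over all probesets was -0.10, against -0.001 with the block.

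In the arrays labelled NSL1, 7 of the 9 genes rose (Firre, Myof, Cep170b, Crip2, Sox15, Rtkn and Tgm1) and none fell, in a comparison where 18.4% of all probesets were called higher and 21.4% lower. Firre and Myof, lower after MSL1 siRNA, thus rose here, and Dnajc6 did not change detectably (-0.03, 95% interval -0.16 to 0.10). Controls C to E are again shared with the choosing fit. Without the block 5 passed, against 28.3% of all probesets, and Cep170b (adjusted p = 0.493) and Tgm1 (0.29) did not. The median change over all probesets was -0.06 in that fit, against -0.008 with the block.

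A contrast that uses no control array and no MSL1 array sets the MOF and MSL1 arrays against the arrays labelled NSL1 within experiments D and E. Of the 9 genes 4 were lower with MOF and MSL1 siRNA (Firre, Dnajc6, Myof and Rtkn) and 2 higher (Ltbp4 and Tgm1), where 13% of all probesets were lower and 16.5% higher. Firre gave the largest difference, -0.77 (SE 0.07, adjusted p = 6.16e-06), followed by Dnajc6 (-0.53, SE 0.08, adjusted p = 0.000165) and Myof (-0.44, SE 0.07, adjusted p = 0.00039). For Cep170b (0.10, 95% interval -0.04 to 0.23), Crip2 (-0.14, -0.29 to 0.01) and Sox15 (0.15, -0.03 to 0.33) the difference did not pass. The fit without the block also takes in the NSL1 array of experiment C, so it is not confined to experiments D and E. There the 4 lower genes remained and Ltbp4 (adjusted p = 0.353) and Tgm1 (0.0539) did not pass, against 12.2% of all probesets. Without experiment E 3 genes passed, Firre, Dnajc6 and Myof, and without experiment D Ltbp4 and Rtkn were lost.

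**Figure D2:**
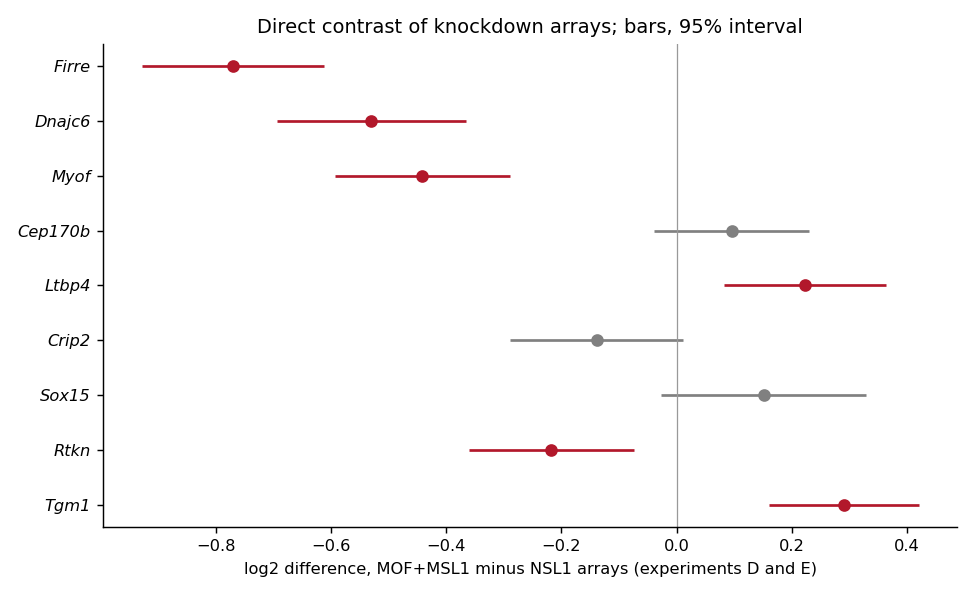
Log2 difference between the MOF and MSL1 arrays and the arrays labelled NSL1 in experiments D and E (x axis) for each of the 9 genes (y axis), with 95% intervals; red points passed the test over all probesets and grey points did not. Firre lies farthest from 0, at -0.77, and the intervals of Cep170b, Crip2 and Sox15 include 0.

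The male lines were compared over 2 experiments each. In WD44 only Myof passed, and it rose (0.33, SE 0.07, adjusted p = 0.0101), against 4.38% of all probesets higher and 7.98% lower (714 and 1299, or 401 and 2220 after median centring), or 0.608% in either direction without the block, where Myof still passed. Without WD44 experiment 2 it was at 0.21 (adjusted p = 0.174). In E14, Sox15 (0.65, SE 0.08, adjusted p = 0.00059) and Crip2 (0.40, SE 0.07, adjusted p = 0.00441) rose and Myof and Dnajc6 fell, against 3.6% higher and 4.73% lower, or 0.669% in either direction without the block, where all 4 still passed. Without E14 experiment 1 Sox15 stood at 0.55 (adjusted p = 0.0529) and Crip2 at 0.36 (0.139), and without experiment 2 Dnajc6 stood at -0.34 (0.0844). Cep170b, Ltbp4, Rtkn and Tgm1 passed in neither male line, with changes of -0.01 to 0.10. The level of Rtkn lay near the middle of all probesets in both lines.

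Firre fell after MOF siRNA and rose in the arrays labelled NSL1. Its log2 level was 8.84, 8.89 and 9.22 in controls A to C and 8.42, 8.47 and 8.67 in the MSL1 arrays, which with these controls chose the gene. Controls D and E stood at 9.10 and 9.15 and the MOF and MSL1 arrays at 8.63 and 8.67. The arrays labelled NSL1 stood at 9.59, 9.39 and 9.45, each above the control of its own experiment. After MOF siRNA the levels were 8.57, 8.77 and 9.52 beside controls of 9.07, 9.01 and 9.93, so each MOF array lay below its own control although experiment 3 stood higher throughout. The fitted changes were -0.38 after MOF siRNA (SE 0.06, adjusted p = 0.000491, 76.7% of control), -0.46 after MOF and MSL1 siRNA (SE 0.07, adjusted p = 0.00262) and 0.34 in the arrays labelled NSL1 (SE 0.06, adjusted p = 0.000309, 126% of control). The difference between the NSL1 and MOF changes, a contrast added after the values were seen, was 0.72 (SE 0.08, adjusted p = 0.000182, and 0.00195 without the block).

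In the male lines Firre did not pass the test after MOF siRNA. WD44 stood at 11.12 and 10.90 beside controls of 10.81 and 10.85 (change 0.18, adjusted p = 0.121), and E14 at 9.67 and 9.57 beside 9.72 and 9.74 (-0.11, adjusted p = 0.409). The MOF change in PGK12.1 lay 0.56 below that in WD44 (difference -0.56, SE 0.10, adjusted p = 0.0119, and 0.248 without the block), while its difference from E14 did not pass (-0.27, adjusted p = 0.147). Of 14 genes on a list of X-linked noncoding RNAs and proteins that act with Firre, 10 were measured. Firre was the only noncoding RNA among these, so the list does not compare it with other noncoding RNAs. Firre and Suz12, a Polycomb subunit, fell after MOF siRNA in PGK12.1 and the other 8 did not pass. Firre was the one gene of that list called after MOF and MSL1 siRNA, where without the block 2 were lower, and the one called in the arrays labelled NSL1. Of all genes 9.84% were higher and 14.6% lower after MOF siRNA in PGK12.1, and 3.51% and 3.42% after MOF and MSL1 siRNA. In the arrays labelled NSL1 the shares were 18.8% and 22.4%.

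**Figure D3:**
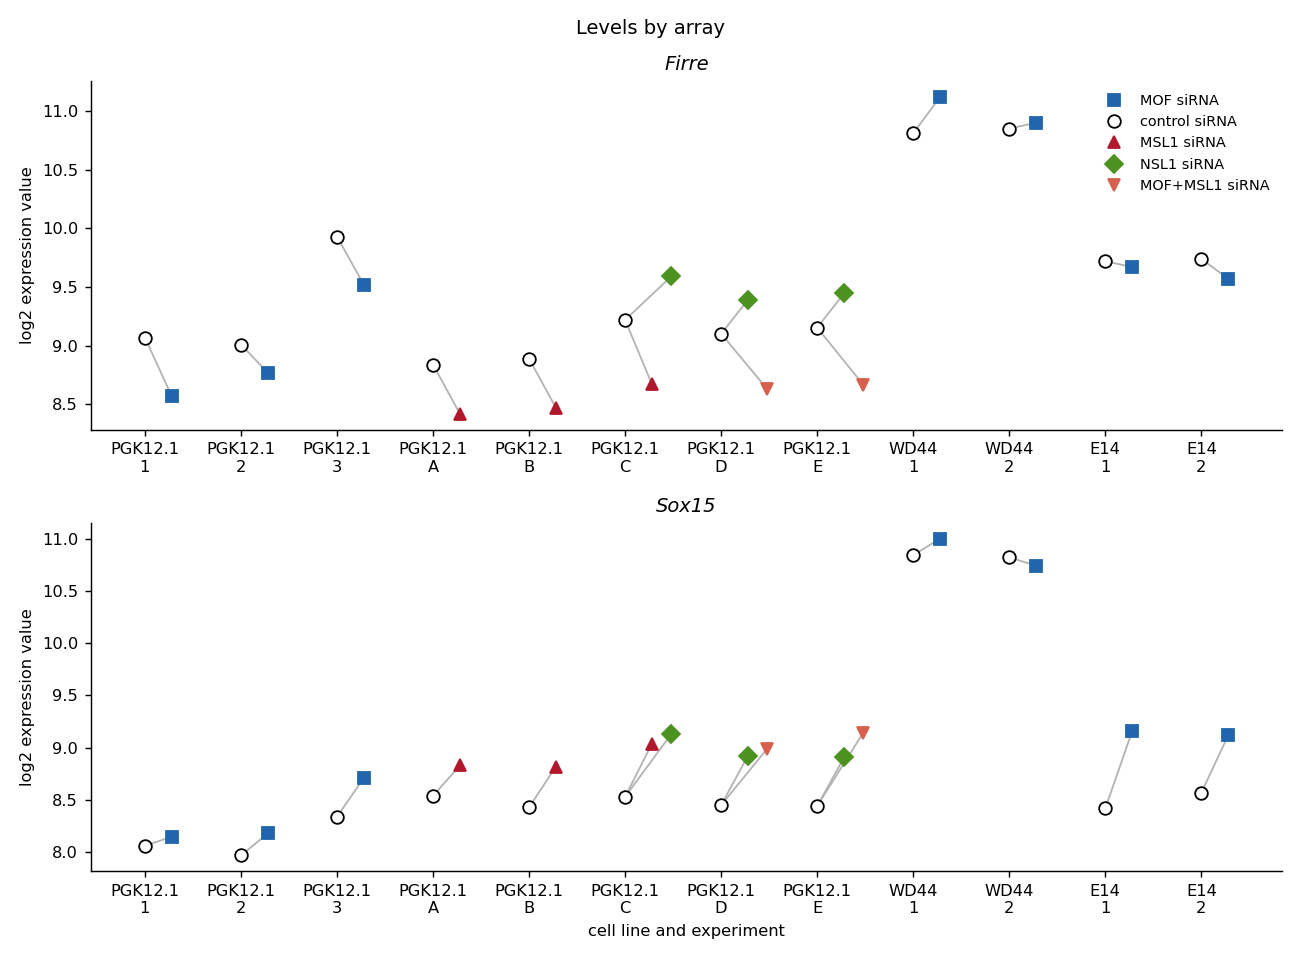
Log2 expression values of Firre (top) and Sox15 (bottom) in all 27 arrays, by cell line and experiment (x axis), with each knockdown joined to the control of its experiment; open circles are controls. Firre after MSL1 or MOF and MSL1 siRNA lies at 8.42 to 8.67 and in the arrays labelled NSL1 at 9.39 to 9.59, whereas Sox15 is above its control in all PGK12.1 experiments.

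Genes near Firre shared part of its pattern. Of the 3 measured genes within 500 kb, Stk26, Rap2c and Mbnl3, Mbnl3, which encodes a muscleblind RNA-binding protein and lies 478 kb away, changed by -0.32, -0.27 and -0.37 in MOF experiments 1 to 3 and by -0.38 and -0.30 in experiments D and E after MOF and MSL1 siRNA. In the arrays labelled NSL1 it changed by 0.39, 0.35 and 0.47. It fell after MOF siRNA (adjusted p = 0.00124) and after MOF and MSL1 siRNA (0.00808) and rose in the arrays labelled NSL1 (6.95e-05), as Firre did, but after MSL1 siRNA alone it stood at -0.05, -0.35 and -0.03, with only experiment B near Firre. Stk26, a kinase gene 206 kb away, fell by 0.83 after MOF siRNA, by 0.46 after MOF and MSL1 siRNA and by 0.62 in WD44, where Firre did not pass. Its fall in WD44 was lost without the block (adjusted p = 0.304) or without experiment 1 (0.17). Rap2c passed in none of these comparisons. Without experiment D or E neither Mbnl3 nor Stk26 passed after MOF and MSL1 siRNA (adjusted p = 0.0772 to 0.21).

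Over all 15 knockdown minus control values, the genes closest to Firre among 13989 were Gng3 (root mean square difference 0.19), C2cd2 (0.21), Dock11 (0.22), Itm2b (0.23) and its neighbour Mbnl3 (0.23), where the median gene was at 0.41 and a flat line at 0.37. Gng3, a G protein gamma subunit, stood at -0.33 after MOF siRNA, -0.42 after MOF and MSL1 siRNA, 0.39 in the arrays labelled NSL1 and -0.22 after MSL1 siRNA. The 15 values share control arrays and experiments, and likeness is a description.

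Dnajc6 encodes auxilin, the cofactor that brings the chaperone HSC70 to clathrin coats for their removal. Its level was 9.51, 9.47 and 9.61 in controls A to C and 9.12, 9.04 and 9.10 in the MSL1 arrays, arrays that chose the gene. After MOF and MSL1 siRNA it was 8.95 and 9.01 beside 9.54 and 9.46 (change -0.54, SE 0.07, adjusted p = 0.00104). The arrays labelled NSL1 held 9.47, 9.50 and 9.53, inside the range of the 5 controls. After MOF siRNA it fell by 0.19 in PGK12.1 (SE 0.06, adjusted p = 0.0396, with -0.24, -0.24 and -0.09 by experiment), a call that was lost without experiment 1 or 2 as well as without the block. In E14 it fell by 0.50 (SE 0.08, adjusted p = 0.00184), with 7.86 and 7.86 beside 8.20 and 8.52, and in WD44 it stood at -0.12 (adjusted p = 0.292). Of 18 measured genes of the clathrin coat and its uncoating, Dnajc6 was the one called after MOF and MSL1 siRNA, where without the block 1 was higher and 2 were lower. Ap2s1, the small AP-2 subunit, fell beside it after MOF siRNA in PGK12.1 (-0.20) and Cltb, a clathrin light chain, rose (0.19), while 15 genes did not pass, and none of the 18 was called without the block. Of all genes 9.84% were higher and 14.6% lower after MOF siRNA in PGK12.1, and 3.51% and 3.42% after MOF and MSL1 siRNA.

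Myof encodes myoferlin, a ferlin of plasma membrane repair. It passed in neither PGK12.1 comparison with MOF siRNA. Controls A to C held 10.54, 10.53 and 10.59 and MSL1 arrays, which with them chose the gene, 10.31, 10.19 and 10.19. The MOF and MSL1 arrays held 10.47 and 10.49 beside 10.54 and 10.53, which did not pass, and the arrays labelled NSL1 held 10.92, 10.86 and 10.98 (change 0.38, SE 0.05, adjusted p = 5.57e-05). After MOF siRNA it stood at 0.15 in PGK12.1 (adjusted p = 0.0623, and 0.0224 after quantile normalization), rose by 0.33 in WD44 and fell by 0.54 in E14 (SE 0.07, adjusted p = 0.000603), where levels were 7.07 and 7.12 beside 7.62 and 7.65. The MOF change differed between PGK12.1 and E14 by 0.69 (adjusted p = 0.002) and between WD44 and E14 by 0.86 (0.00153), both kept without the block.

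In WD44, 6 of 13 measured feeder fibroblast markers also rose after MOF siRNA, none fell and 7 did not pass, against 4.45% of all genes higher and 8.28% lower. Those that rose included Acta2 (0.97) and Col1a1 (0.38), and the mean change of the 18 markers was 0.22 and 0.16 in experiments 1 and 2, with mean levels of 8.34 in both controls and 8.50 to 8.56 in MOF arrays. None of the 6 was called without the block. In PGK12.1 and E14 the mean change of these markers lay between -0.05 and 0.10 in single experiments. Other marker lists also moved in WD44 with the block. Of 9 measured trophectoderm markers 2 rose and none fell (mean change of the list 0.12 and 0.20 in experiments 1 and 2), of 11 primitive endoderm markers 3 rose and 1 fell (0.16 and 0.07), and of 7 primed epiblast markers none rose and 3 fell (-0.14 and -0.23). Without the block 1 trophectoderm marker rose and none of the others passed. The part of these markers in the rise of Myof was not tested. Among 12 measured genes of ferlins and membrane repair, Ehd3, an EH domain ATPase, fell after MOF siRNA in all 3 lines (-0.49, -0.53 and -0.43 in PGK12.1, WD44 and E14) and after MOF and MSL1 siRNA (-0.38), and Anxa2, an annexin, rose in PGK12.1 (0.39) and WD44 (0.29). For MOF siRNA in PGK12.1 the list had 2 genes higher, 3 lower and 7 that did not pass, and without the block 1 higher and none lower. Of all genes 9.84% were higher and 14.6% lower there with the block.

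Sox15 was higher after every kind of siRNA in PGK12.1. Controls A to C held 8.54, 8.43 and 8.53 and MSL1 arrays 8.83, 8.82 and 9.04. Controls D and E held 8.45 and 8.44, the MOF and MSL1 arrays 8.99 and 9.14, and the arrays labelled NSL1 9.13, 8.93 and 8.91. The MSL1 arrays and the 5 controls took part in choosing the gene. The change was 0.64 after MOF and MSL1 siRNA (SE 0.08, adjusted p = 0.000561, 155% of control) and 0.50 in the arrays labelled NSL1 (SE 0.06, adjusted p = 2.23e-05, 141% of control). After MOF siRNA the levels were 8.15, 8.18 and 8.71 beside 8.06, 7.97 and 8.34. The change was smallest in experiment 1 (0.09) and larger in experiment 2 (0.21), both with 2 rounds of siRNA, and in experiment 3 (0.37), with 1 round. Its mean of 0.22 (SE 0.07, adjusted p = 0.0253) missed the threshold without experiment 2 (0.0867) or 3 (0.218).

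The male lines differed from each other in Sox15. E14 held 9.16 and 9.12 beside 8.42 and 8.57, both above, at 156% of control. WD44 held 11.00 and 10.74 beside 10.84 and 10.82, which overlapped (change 0.04, adjusted p = 0.788, and -0.01 after median centring). The MOF change in E14 exceeded that in PGK12.1 by 0.42 (adjusted p = 0.0489) and that in WD44 by 0.61 (0.026), but neither difference passed without the block (0.32 and 0.227). Sox2, the ES cell paralogue, fell by 0.21 in E14, a call lost without the block. Among 14 measured SOX genes, Sox15 was the one called after MOF and MSL1 siRNA, where without the block 1 was higher and 1 was lower. Of all genes 3.51% were called higher and 3.42% lower there. In the arrays labelled NSL1 5 rose, 1 fell and 8 did not pass, against 18.8% of all genes higher and 22.4% lower. Sox11 rose by 0.80 and Sox4 by 0.40, and Sox18 fell by 0.43.

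Cd68, a lysosomal membrane glycoprotein of macrophages whose gene lies 7.49 kb from Sox15, was above its control in all 15 knockdown minus control values, some of which share a control array. Its changes were 0.48, 0.47 and 0.47 after MOF siRNA, 0.33, 0.48 and 0.50 after MSL1 siRNA, 0.28, 0.41 and 0.40 in the arrays labelled NSL1, and 0.56 and 0.52 after MOF and MSL1 siRNA. In WD44 they were 0.28 and 0.24 and in E14 0.54 and 0.42. It passed in each of the 5 comparisons other than MSL1 (adjusted p = 2.05e-05 to 0.0162), though in none of them without the block (adjusted p = 0.105 to 0.673). With 1 experiment left out it also missed the threshold in WD44 (0.0815 and 0.219), in E14 without experiment 1 (0.0519) and after MOF and MSL1 siRNA without experiment D (0.0527). In WD44 Cd68 rose where Sox15 did not. Of the 49 measured genes within 500 kb of Sox15, 8 rose (16.3%) and 5 fell (10.2%) after MOF siRNA in PGK12.1, against 9.84% and 14.6% of all genes, 6 rose (12.2%) and none fell after MOF and MSL1 siRNA, against 3.51% and 3.42%, and Tmem88 and Cyb5d1 were among the higher genes in both. The genes closest to Sox15 over the 15 values were Crip2 (root mean square difference 0.17), Grasp (0.17), Mapkapk3 (0.19), Cd68 (0.19) and Got1l1 (0.20), where the median gene was at 0.48 and a flat line at 0.46. Sox15 and Crip2 were chosen on the same MSL1 arrays, which are among these values.

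**Figure D4:**
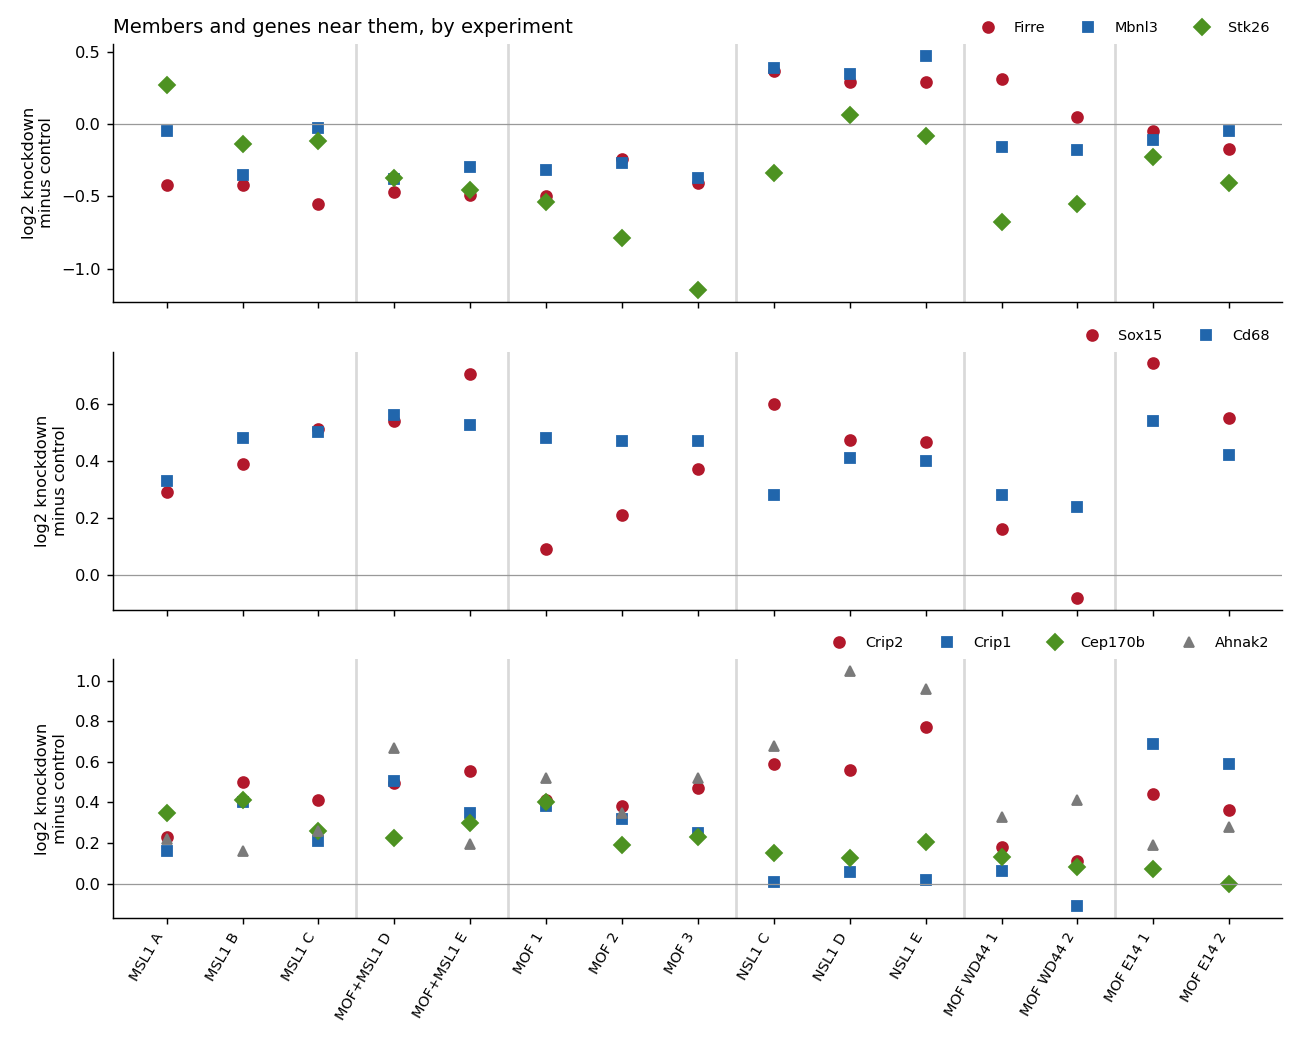
Log2 knockdown minus control (y axis) for each of the 15 knockdown arrays (x axis) for Firre with Mbnl3 and Stk26 (top), Sox15 with Cd68 (middle) and Crip2 with Crip1, Cep170b and Ahnak2 (bottom). Mbnl3 lies near Firre in the MOF, MOF and MSL1 and NSL1 columns, Cd68 is above 0 throughout, and Crip1 is close to 0 in the arrays labelled NSL1 where Crip2 is highest.

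Crip2, like Sox15, passed in 4 of the 5 comparisons other than MSL1. Its levels were 9.98, 9.96 and 9.92 in controls A to C and 10.21, 10.46 and 10.33 in the MSL1 arrays, 9.88 and 9.75 in controls D and E and 10.38 and 10.31 with MOF and MSL1 siRNA, and 10.51, 10.44 and 10.52 in the arrays labelled NSL1. The MSL1 arrays and the 5 controls took part in choosing the gene. Its change was 0.63 in the arrays labelled NSL1 (SE 0.06, adjusted p = 5.73e-07, 155% of control), 0.51 after MOF and MSL1 siRNA (SE 0.07, adjusted p = 0.000807) and 0.42 after MOF siRNA (0.41, 0.38 and 0.47 by experiment), and these 3 calls as well as that in E14 held without the block. In WD44 it stood at 0.14 (adjusted p = 0.18). Crip1, a LIM protein gene 6.51 kb from Crip2, rose after MOF siRNA in PGK12.1 (0.32, SE 0.06, adjusted p = 0.00106), after MOF and MSL1 siRNA (0.42, adjusted p = 0.00262) and in E14 (0.64, adjusted p = 0.000364), and stood at 0.01, 0.05 and 0.02 in the arrays labelled NSL1. In the direct contrast it was higher with MOF and MSL1 siRNA (0.39, adjusted p = 0.000942), whereas Crip2 did not pass. Without experiment D neither call of Crip1 in experiments D and E passed (0.129 and 0.0537). Of 6 CRIP and CSRP LIM proteins the other 4 passed neither after MOF siRNA nor after MOF and MSL1 siRNA in PGK12.1. Of all genes 9.84% were higher and 14.6% lower after MOF siRNA, and 3.51% and 3.42% after MOF and MSL1 siRNA.

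Cep170b, a paralogue of the centrosomal and microtubule protein CEP170, lies 394 kb from Crip2 on chromosome 12 with 11 measured genes between them. No other members lie within 500 kb of each other. Its levels were 8.85, 8.80 and 8.80 in controls A to C and 9.20, 9.21 and 9.06 in the MSL1 arrays, which with these controls chose the gene. The change was 0.27 after MOF siRNA (SE 0.05, adjusted p = 0.00132), 0.27 after MOF and MSL1 siRNA (0.0148) and 0.18 in the arrays labelled NSL1 (0.00917), all 3 lost without the block and the last also without experiment C (0.0523) or E (0.0721). Controls D and E (8.51 and 8.57) stood below controls A to C, as did their array medians (6.39 and 6.42, against 6.76 to 6.77). The MOF and MSL1 arrays (8.73 and 8.87) are therefore to be read only against controls D and E. Ahnak2, 25.6 kb from Cep170b, rose after MOF siRNA (0.46, adjusted p = 0.00117) and in the arrays labelled NSL1 (0.87, adjusted p = 9.71e-07). Of 12 measured genes of the CEP170 family and subdistal appendages of the centriole, 5 rose after MOF siRNA in PGK12.1 (among them Ccdc120, 0.30, and Ninl, 0.25), 2 fell (among them Cep128, -0.28) and 5 did not pass, and without the block 2 rose and 1 fell. Of all genes 9.84% were higher and 14.6% lower there with the block.

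Ltbp4 encodes a protein that stores latent TGF-beta in the extracellular matrix. Its levels were 9.51, 9.40 and 9.27 in controls A to C and 9.77, 9.70 and 9.74 in the MSL1 arrays, arrays that chose the gene. After MOF and MSL1 siRNA it was 9.43 and 9.48 beside 9.10 and 9.16 (change 0.33, SE 0.06, adjusted p = 0.00704). These values lay within the range of controls A to C, which belong to a set of higher array medians and are not comparable. The arrays labelled NSL1 held 9.44, 9.14 and 9.32, each above its own control but not called (0.10, adjusted p = 0.12). After MOF siRNA it rose by 0.17 (SE 0.05, adjusted p = 0.0314), a call lost when any 1 of the 3 experiments was left out (adjusted p = 0.0509 to 0.163). Of 15 measured genes of latent TGF-beta and elastic fibres, Ltbp4, Smad3 (0.27) and Tgfbr1 (0.31) rose after MOF siRNA in PGK12.1, Smad7 fell (-0.18) and 11 did not pass. After MOF and MSL1 siRNA Ltbp4 and the ligand Tgfb2 (0.28) rose and 13 did not pass. Without the block 1 was higher and none lower in the MOF comparison, and none was higher and 1 lower after MOF and MSL1 siRNA. With the block 9.84% of all genes were higher and 14.6% lower after MOF siRNA, and 3.51% and 3.42% after MOF and MSL1 siRNA.

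Rtkn was 9.61, 9.45 and 9.46 in controls A to C and 9.83, 9.93 and 9.79 in the MSL1 arrays, and 10.10, 9.91 and 9.85 in the arrays labelled NSL1. The MOF and MSL1 arrays held 9.65 and 9.67. The MSL1 arrays and controls A to E chose the gene. The NSL1 change of 0.53 (SE 0.06, adjusted p = 3.49e-06) exceeded the change after MOF and MSL1 siRNA (0.28, SE 0.07, adjusted p = 0.0244), and the direct contrast passed (-0.22, SE 0.07, adjusted p = 0.0246). After MOF siRNA the change was 0.49, 0.40 and 0.48 by experiment in PGK12.1, and 0.06 in WD44 and 0.03 in E14. The differences from WD44 (0.40, adjusted p = 0.0369) and E14 (0.43, adjusted p = 0.0308) were lost without the block (0.235 and 0.196). Rtkn stood lower on the male arrays, at percentiles 52.2 to 53.5 of all probesets in WD44 and 47.1 to 48.0 in E14. In PGK12.1 experiments 1 to 3 it stood at 68.2 to 76.8. Whether a change would be seen at the lower levels was not tested. Wdr54, which lies 0.131 kb from Rtkn in the RefSeq annotation, fell where Rtkn rose: by 0.23 after MOF siRNA (adjusted p = 0.0111, but 0.2 without the block, 0.0601 without experiment 1 and 0.0683 without experiment 3), by 0.41 in the arrays labelled NSL1 (4.32e-05) and by 0.35 after MOF and MSL1 siRNA (0.00977, and 0.0939 to 0.23 with 1 experiment left out). After MSL1 siRNA Wdr54 stood at -0.02, 0.08 and 0.21.

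Tgm1 encodes the transglutaminase that crosslinks the cornified envelope of keratinocytes. Its levels were 9.17, 9.16 and 8.98 in controls A to C and 9.50, 9.50 and 9.27 in the MSL1 arrays, arrays that chose the gene. After MOF and MSL1 siRNA they were 9.42 and 9.40. Tgm1 rose by 0.43 after MOF and MSL1 siRNA (SE 0.06, adjusted p = 0.00193) and by 0.33 after MOF siRNA (0.27, 0.41 and 0.31 by experiment, SE 0.05, adjusted p = 0.000616). In the arrays labelled NSL1 experiments C, D and E gave 0.28, 0.19 and 0.02 (fitted change 0.18, adjusted p = 0.0145), and the call was lost without experiment C (0.224) or D (0.0851). The direct contrast was 0.29 (SE 0.06, adjusted p = 0.00256). Of 11 measured genes of transglutaminases and the cornified envelope, Tgm1 and Dsp, desmoplakin (0.30), rose after MOF siRNA in PGK12.1, and 9 did not pass. Tgm1 was the one called after MOF and MSL1 siRNA. Of all genes 9.84% were higher and 14.6% lower after MOF siRNA in PGK12.1, and 3.51% and 3.42% after MOF and MSL1 siRNA.

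Over the 167 measured genes within 500 kb of any of the 9, members left out, 18 rose (10.8%) and 20 fell (12%) after MOF siRNA in PGK12.1, against 9.84% and 14.6% of all 13989 genes. After MOF and MSL1 siRNA 10 rose (5.99%) and 6 fell (3.59%), against 3.51% and 3.42%. In E14 16 rose (9.58%) and 2 fell (1.2%), against 3.77% and 4.93%. In the arrays labelled NSL1 20 rose (12%) and 51 fell (30.5%), against 18.8% and 22.4%, while 7 members rose there. Around the members not yet taken up, called genes after MOF siRNA in PGK12.1 moved both ways. Ak4, an adenylate kinase gene 28.9 kb from Dnajc6, rose by 0.44 and Raver2, 344 kb away, fell by 0.34. The Ak4 probeset is numbered apart from those of the other genes near Dnajc6, and where its probes map was not checked. Cep55, 11.4 kb from Myof, rose by 0.30 and Fra10ac1 fell by 0.54. Zfp607b near Ltbp4 rose by 0.35 and Coq8b fell by 0.22. Dhrs1, a short-chain dehydrogenase gene 25.1 kb from Tgm1, fell by 0.57 where Tgm1 rose, and fell by 0.97 in the arrays labelled NSL1.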

How the data were processed

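Total RNA of 27 samples was hybridised to Affymetrix mouse gene arrays. The authors deposited log2 expression values, 1 per probeset and array, made with Affymetrix Expression Console and RMA per the submitters' processing notes; versions and genome build are not given in the sources used here. Probesets were named through the platform annotation and RefSeq GRCm38.p6 (21789 with 1 symbol, 1621 with several, 12146 with none; 21698 matched). The 16283 probesets that had a symbol and averaged 6 or more (log2) were fitted with limma 3.58.1 in R 4.3.3, with the 12 experiments as a block and 6 treatment terms (9 residual degrees of freedom) and a threshold of 0.05 on Benjamini-Hochberg adjusted p-values. The contrast of MOF and MSL1 with NSL1 took experiment C out of the NSL1 term (8 degrees of freedom). The fit without the block had 10 group means and a term for rounds of siRNA (16 degrees of freedom). It pools controls A to E across sets of different array median and keeps experiment C in the NSL1 mean.

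Groups and pairing come from the labels, which give each experiment its control. Deviations of a knockdown array and its control correlated at 0.629 to 0.867 for MOF in PGK12.1, 0.545 to 0.783 for NSL1, -0.0461 to 0.358 for MSL1, 0.262 and -0.0967 for MOF and MSL1, 0.0113 in WD44 and 0.129 in E14, over 16283 probesets. Likeness and neighbours used for each gene its brightest probeset. Neighbours were placed by the RefSeq position of the gene, and the positions of the probes were not checked. Besides the members and the targeted genes, the text names up to 4 called genes per list and 3 near each member by smallest p, the 5 genes most like Firre and Sox15, and those beside the threshold. The neighbours followed across comparisons (Mbnl3, Stk26, Rap2c, Cd68, Crip1, Ahnak2, Wdr54, Tmem88, Cyb5d1) were singled out after their values were seen. The members and lists were chosen with earlier results of these data known. Fits were tested on simulated data. The number of arrays limits the precision.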

Additional observations from a re-analysis of the deposited data

Results flagged for a closer look

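Chance marks about 1 in 20 groups for an outlying array; of the 9 member sets of 5 controls in experiments A to E, 2 were marked. In Myof the control of experiment C, at 10.59, stood above the other 4, which lay between 10.53 and 10.54. In Rtkn the control of experiment A, at 9.61, stood above the other 4, which lay between 9.40 and 9.46.

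The change after MOF siRNA differed between lines in 7 tests of the difference itself. The change of Firre was lower in PGK12.1 than in WD44 (-0.56, adjusted p = 0.0119). Rtkn rose more in PGK12.1 than in WD44 (0.40, adjusted p = 0.0369) and than in E14 (0.43, adjusted p = 0.0308). Its level in WD44 and E14 lay only near the middle of all probesets. Sox15 rose less in PGK12.1 than in E14 (-0.42, adjusted p = 0.0489), and its change was lower in WD44 than in E14 (-0.61, adjusted p = 0.026). Myof stood higher in PGK12.1 than in E14 (0.69, adjusted p = 0.002) and in WD44 than in E14 (0.86, adjusted p = 0.00153). The Myof differences held without the block and the other 5 did not (adjusted p = 0.196 to 0.32). These contrasts were added after the values were seen. Line, strain, sex and the set in which arrays were processed cannot be told apart here.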

How the results depend on the processing

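Without the replicate block 4 of 9 genes were called after MOF siRNA in PGK12.1 and 5 after MOF and MSL1 siRNA, against 8 each with it, and 1250, 1612, 99, 109 and 1992 probesets in all after MOF siRNA, after MOF and MSL1 siRNA, in WD44, in E14 and in the contrast of MOF and MSL1 with NSL1, against 3816, 1048, 2013, 1357 and 4795 with the block. The contrast of MOF and MSL1 with NSL1 without the block also includes the NSL1 array of experiment C. Array weights gave 5 members after MOF siRNA. Over all probesets, array weights called 267 after MSL1 siRNA, 9722 after NSL1 siRNA and 2435 after MOF and MSL1 siRNA, against 30, 6480 and 1048. Without the filter 15, 690 and 857 were called after MSL1 siRNA, after MOF and MSL1 siRNA and in E14, and after quantile normalization 693 after MOF and MSL1 siRNA. With 1 experiment left out, 2288 to 3361 were called after MOF siRNA in PGK12.1, 5 to 9 after MSL1 siRNA, 12 to 164 after MOF and MSL1 siRNA, 2099 to 2214 in the contrast with NSL1, 161 to 702 in WD44 and 55 to 325 in E14. With 1 experiment left out, members called ran from 5 to 6 after MOF siRNA in PGK12.1, from 1 to 4 after MOF and MSL1 siRNA, from 3 to 4 in the contrast with NSL1, from 0 to 1 in WD44 and from 2 to 3 in E14; with 1 experiment left of a pair, its spread is taken from the other groups. Signs turned for values near 0 in uncalled comparisons. Dnajc6 in the arrays labelled NSL1 was at 0.012 from experiments D and E only. In WD44 Ltbp4 was at -0.02 and Sox15 at -0.01 after median centring, and Tgm1 at 0.042 after quantile normalization. With 1 experiment left out, Dnajc6 after NSL1 siRNA ran from -0.077 to 0.012, and in WD44 Ltbp4 ran from -0.02 to 0.08, Sox15 from -0.08 to 0.16, Rtkn from -0.03 to 0.14 and Tgm1 from -0.03 to 0.02. Of all values under these settings, 483 kept direction and call, 33 lost the call and 1 gained it; with 1 experiment left out, 159 kept both and 51 lost the call. Pairing comes from the labels. The cause of these shifts was not tested.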
